A study of Homo sapiens with 17 samples.

Results

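The levels of 9 genes for surface or secreted molecules with which tumour cells hold back immune cells were followed: CD274 (PD-L1), PDCD1LG2 (PD-L2), CD276 (B7-H3), VTCN1 (B7-H4), PVR (CD155), NECTIN2 (CD112), LGALS9 (galectin-9), NT5E (CD73) and CD47. They are 9 of the 17958 genes measured, each represented by the brightest probe set to which the array's annotation gives that symbol alone. All 9 had 1 such probe set. LGALS9 had 2 further probe sets shared with near-identical copies of the gene, which were not used. RNA was measured on 17 arrays from A549 and H2122 cells, a pair of human lung adenocarcinoma lines without functional LKB1, which is the tumour suppressor kinase made from the gene STK11. Cells of each line had been stably transduced with the retroviral vector pBABE carrying no insert (pBABE), the kinase-dead mutant LKB1-K78I (K78I) or wild-type LKB1 (LKB1). All groups, controls included, were selected in 1 µg/mL puromycin for 2 weeks and harvested in logarithmic growth. The serum content given was 5% for every sample. Each group held 3 arrays, except H2122 pBABE with 2. The labels do not say whether the transduced cells were clones or whether the replicates were grown apart. The p-values therefore cover the spread between these arrays, which may be technical, and precision is limited by how few arrays there are.

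These molecules act at different steps of the immune response. PD-L1 and PD-L2 bind the receptor PD-1 on T cells, and B7-H3 and B7-H4 belong to the same B7 family. PVR and NECTIN2 are shared ligands of the inhibitory receptor TIGIT and the activating receptor CD226, CD73 makes the immunosuppressive nucleoside adenosine from AMP, and CD47 binds SIRPα on macrophages and restrains phagocytosis. Interferon-γ is the best known inducer of PD-L1 in epithelial cells, through JAK and STAT signalling and IRF1, which binds interferon response elements.

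The promoters of CD274 and NT5E are shown because these genes changed most with LKB1 among the members listed in the promoter table, which held 8 of the 9. Each sequence is the 250 bases before the annotated start, read 5′ to 3′ from the RefSeq set on GRCh38.p14. Capitals mark matches, on either strand, to the motifs searched.

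CD274, chr9:5450292-5450541, plus strand: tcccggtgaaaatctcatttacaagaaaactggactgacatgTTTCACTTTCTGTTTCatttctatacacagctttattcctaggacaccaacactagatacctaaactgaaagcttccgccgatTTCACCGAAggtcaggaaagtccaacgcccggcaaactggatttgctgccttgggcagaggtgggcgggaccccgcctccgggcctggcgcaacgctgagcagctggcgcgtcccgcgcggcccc

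NT5E, chr6:85449833-85450082, plus strand: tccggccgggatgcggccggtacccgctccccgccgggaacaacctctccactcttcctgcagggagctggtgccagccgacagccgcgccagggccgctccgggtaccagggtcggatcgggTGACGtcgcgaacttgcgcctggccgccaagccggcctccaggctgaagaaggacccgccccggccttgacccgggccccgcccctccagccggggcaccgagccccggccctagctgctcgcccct

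The capitals in CD274 are an overlapping pair of matches to the core of the interferon response element (GAAA, any 2 bases, GAAA), starting 208 and 202 bases before the start, and 1 match to the STAT element TTCNNNGAA at 125 bases. Of 35116 promoters of this length, 3.02% held the former and 6.57% the latter. The capitals in NT5E are 1 match to TGACG, the core of the cyclic AMP response element, at 127 bases, which 21.2% of promoters held. The full element TGACGTCA (1.65% of promoters), which contains that core, the AP-1 element TGANTCA (6.57%), the TEAD element GGAATG (11.9%) and the hypoxia core ACGTG (18.5%) had no match in either window. A match is a string of letters, not a shown binding site.

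The values are log2 levels made with RMA, which gives all arrays like distributions; array medians lay between 5.62 and 5.73. They compare 1 gene between arrays, not different genes with each other. STK11 went with the labels in H2122, at 6.22 and 6.33 with pBABE and between 11.20 and 11.35 on the other arrays. In A549 the library labelled pBABE replicate 3 read 10.52 and the library labelled K78I replicate 2 read 7.14, each against its label, while pBABE replicates 1 and 2 read 6.88 and 7.38. The A549 LKB1 arrays read 9.42, 10.23 and 9.62, below K78I replicates 1 and 3 at 10.54 and 10.42. Against the mean of both control groups, limma called STK11 neither in A549 (0.95, adjusted p = 0.516) nor in H2122 (2.49, 0.0634). The K78I construct also carries STK11, so that comparison cannot check the labels. For 3 H2122 arrays (pBABE replicate 2, LKB1 replicate 3 and K78I replicate 3) the source name contradicts the title, the description and the construct entry, and the latter were used here. Under the source name, H2122 pBABE replicate 2 would carry LKB1 and K78I replicate 3 the empty vector, whereas their STK11 levels were 6.22 and 11.26. H2122 LKB1 replicate 3 read 11.26, but LKB1 and K78I arrays had like STK11 levels, so STK11 cannot tell these constructs apart. Genes of the cell cycle were lowest for their line on A549 pBABE replicate 1, A549 K78I replicate 2 and H2122 pBABE replicate 2. Of the leukocyte markers, 10 were measured, with a mean level between 4.43 and 4.77 on every array. CD68 of that list stood far above this mean, at 8.61 in A549 controls and 8.87 in H2122 controls. The epithelial markers averaged 9.03 to 11.38 on the 17 arrays, but KRT19 and EPCAM were far lower in A549 controls, by a log2 difference of -5.81 and -4.18 from H2122.

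In H2122, LKB1 came with higher PD-L1, PD-L2 and CD73, and in A549 none of the 3 was called. A gene was called where limma's adjusted p lay under 0.05 for LKB1 against the mean of both control groups. In H2122, 3 of the 9 genes were called, all higher, against 7.28% of all genes called in either direction, 4.99% higher and 2.29% lower. In A549, 0 of 9 were called, against 8.44% of all genes (5.49% higher, 2.95% lower), although 3 (CD276, LGALS9 and CD47) had an unadjusted p under 0.05 in limma. The median log2 difference of the 9 genes was 0.45 in H2122 and -0.05 in A549, beside -0.04 and -0.02 over all genes. Every one of the 9 differences in H2122 was above 0, though LGALS9 had only 0.0008 ± 0.20 and PVR 0.06 ± 0.17. The 9 genes had been chosen with earlier results of these data known.

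CD274, the main PD-1 ligand of tumour cells, read 6.79, 6.11 and 7.14 on the H2122 LKB1 arrays. The H2122 controls read 5.20 and 4.50 with pBABE and 5.90, 4.86 and 5.04 with K78I. All LKB1 arrays lay above all control arrays, with K78I replicate 1 the highest control. The log2 difference was 1.62 ± 0.27 (SE), a 3.08-fold rise (adjusted p = 0.00143). The fold rests in part on pBABE replicate 2 at 4.50, under 4.83, the level below which the dimmest 30% of genes lie. In A549 the LKB1 arrays read 3.86, 3.97 and 3.43, the pBABE arrays 4.37, 4.08 and 4.55, and the K78I arrays 3.72, 3.78 and 4.18. These groups overlapped, and the difference of -0.36 ± 0.26 did not pass (adjusted p = 0.481, 95% interval -0.90 to 0.19).

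PDCD1LG2, the second PD-1 ligand, behaved alike in H2122. It read 6.47, 5.05 and 6.47 with LKB1, 4.50 and 3.31 with pBABE, and 4.39, 3.95 and 3.77 with K78I. LKB1 replicate 2 was the lowest of its group for both PD-1 ligands and still lay above every control. The log2 difference was 2.02 ± 0.30 (adjusted p = 0.000645); no fold is given, since all 5 controls lay under 4.83, the level below which the dimmest 30% of genes lie. In A549 all 9 arrays lay between 3.31 and 3.68, with a difference of 0.06 ± 0.29 (adjusted p = 0.941, 95% interval -0.55 to 0.67).

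NT5E, the ecto-enzyme CD73, read 10.54, 10.65 and 10.69 with LKB1 in H2122. The controls read 8.84 and 8.07 with pBABE and 9.46, 8.24 and 8.13 with K78I. The LKB1 arrays lay closer together than either control group and above all of them. The rise was 2.10 ± 0.33 on the log2 scale, or 4.27-fold (adjusted p = 0.00106). In A549 the LKB1 arrays read 7.01, 6.83 and 6.63, within the controls' range of 6.46 to 7.74, and the difference was -0.17 ± 0.32 (adjusted p = 0.833, 95% interval -0.85 to 0.51).

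**Figure D1:**
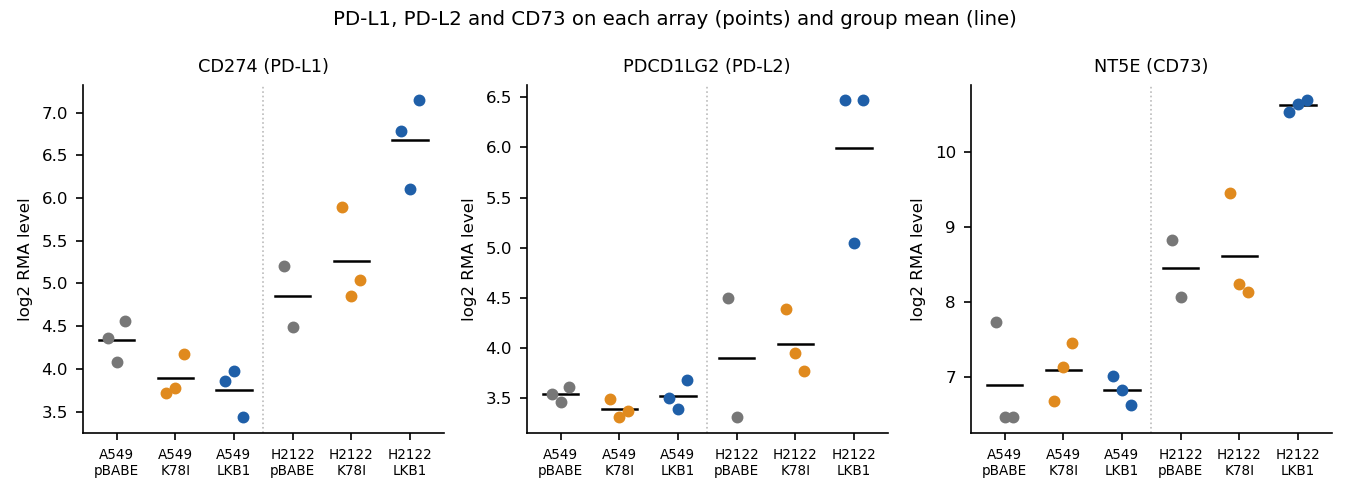
Log2 RMA level (vertical axis; each panel has its own range) of CD274, PDCD1LG2 and NT5E in the 6 groups (horizontal axis). Each point is an array and each line a group mean; the H2122 LKB1 arrays (6.11 to 7.14, 5.05 to 6.47 and 10.54 to 10.69) lie above the other groups in all 3 panels.

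The 3 rises held against each control in H2122. Against pBABE the log2 differences were 1.83 for CD274 (adjusted p = 0.00376), 2.09 for PDCD1LG2 (0.00335) and 2.17 for NT5E (0.00479), the only 3 members called, with 5.77% of all genes called and 4.17% called higher. Against the kinase-dead K78I they were 1.41 (adjusted p = 0.0139), 1.96 (0.00363) and 2.02 (0.00563), again the only 3 members called, with 3.89% of all genes called and 2.98% called higher. STK11 itself read between 11.20 and 11.35 in both of these H2122 groups, wild-type and K78I. K78I against pBABE gave 0 called members, and limma called 0% of all genes, in either line. Even STK11, higher with K78I by 5.00 in H2122, was not called by limma there (adjusted p = 0.167). The count of 0 therefore cannot show that the control groups are alike. An unadjusted p under 0.05 was found for 472 genes in A549 and 1260 in H2122, with 0 members among them.

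The difference between the lines passed for the same 3 genes. Of these, CD274 and PDCD1LG2 lay under 4.83 on every A549 array, where a level is hard to tell from background. The A549 effect minus the H2122 effect was -1.98 ± 0.37 for CD274 (adjusted p = 0.00802), -2.26 ± 0.46 for NT5E (0.0125) and -1.96 ± 0.42 for PDCD1LG2 (0.0166), with 3.6% of all genes called and 1.98% called in this direction. For the other 6 members it did not pass. These calls depended on the arrays with conflicting labels. Without those 3 arrays the H2122 rise was 1.16 for CD274 (adjusted p = 0.0837), 1.42 for PDCD1LG2 (0.0374) and 1.75 for NT5E (0.0541). The differences between lines were then -1.52, -1.36 and -1.92 (adjusted p = 0.109, 0.151 and 0.132), and 0 passed. The difference for PDCD1LG2 was also lost without H2122 LKB1 replicate 1 (-1.73, adjusted p = 0.0594) or replicate 3 (-1.73, 0.0613). With K78I as the only control it was lost for CD274 (-1.55, adjusted p = 0.0862) and PDCD1LG2 (-1.82, 0.0726).

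Cell cycle genes were low on 1 of the 5 H2122 control arrays, pBABE replicate 2. With LKB1, limma called 0 of the 33 measured in either line, with 0 at an unadjusted p under 0.05. The share of all genes called was 7.28% in H2122 and 8.44% in A549. Yet all 33 differences were above 0 in H2122 (median 0.20), and 28 in A549 (median 0.19). Between the H2122 controls, K78I minus pBABE had a median of 0.83, and 20 of the 33 had an unadjusted p under 0.05 in limma. Without the 3 arrays low in these genes the H2122 rises were 1.45 for CD274 (adjusted p = 0.00742), 1.73 for PDCD1LG2 (0.00299) and 1.90 for NT5E (0.00127). Single markers of cell types were called too. In H2122, CSF1R of the leukocyte list was higher with LKB1, by 0.60 (adjusted p = 0.0126), and PECAM1 of the endothelial list was lower, by a difference of -0.79 (0.0116). Without the arrays with conflicting labels they had 0.66 (adjusted p = 0.0631) and -0.43 (0.158). Against K78I alone neither was called, with 0.51 for CSF1R (adjusted p = 0.0749) and -0.42 for PECAM1 (0.315). Against pBABE alone both were called, with 0.69 for CSF1R (adjusted p = 0.0238) and -1.17 for PECAM1 (0.00458). The CSF1R call was also lost without H2122 LKB1 replicate 1 (0.0615) or replicate 2 (0.069), and the PECAM1 call without replicate 3 (0.0838), all adjusted p from limma. In A549, CDH1 of the epithelial list was lower with LKB1 (-1.17, adjusted p = 0.011; -0.78 and 0.0677 without A549 LKB1 replicate 2). The part of these genes in the results was not tested.

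**Figure D2:**
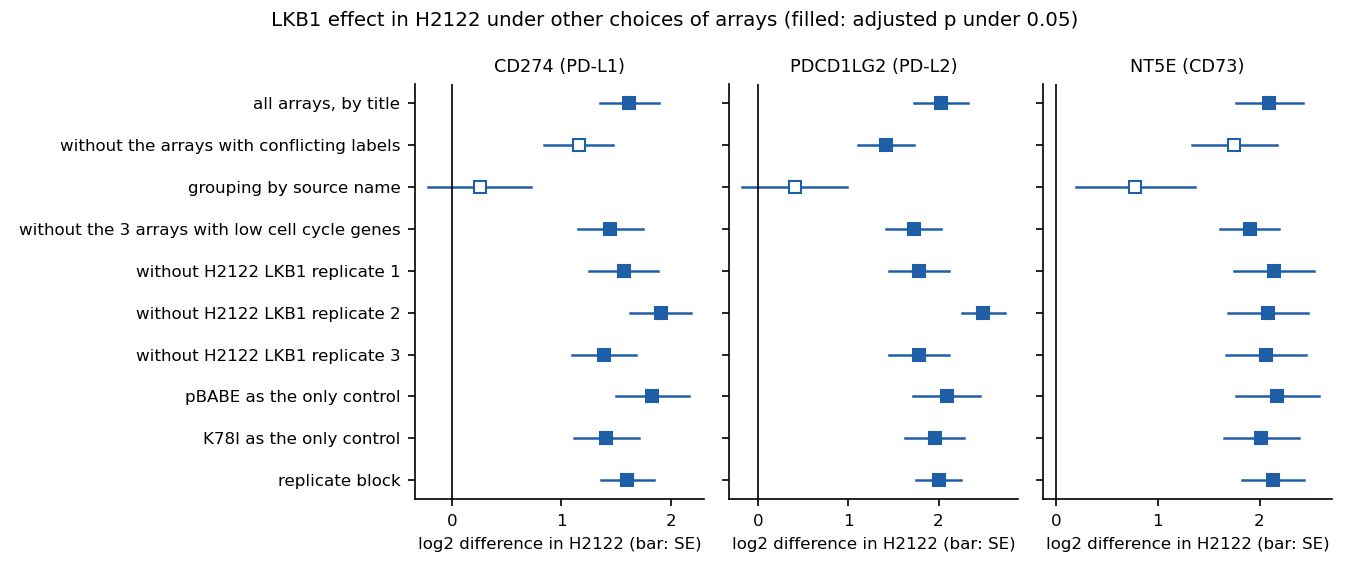
Log2 difference between LKB1 and controls in H2122 (horizontal axis; bars are SE) for CD274, PDCD1LG2 and NT5E under different choices of arrays (vertical axis), filled where the adjusted p was under 0.05. The values stay above 1 except when arrays are grouped by source name (0.25, 0.41 and 0.78), and CD274 and NT5E lose their call when the 3 arrays with conflicting labels are left out.

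CD47 was the 1 member whose LKB1 arrays lay above all control arrays in both lines, an array pattern that 2.64% of all genes showed. In A549 it read 9.04, 8.90 and 9.06 with LKB1, 8.58, 8.51 and 8.83 with pBABE, and 8.64, 7.95 and 8.81 with K78I. In H2122 it read 9.76, 9.82 and 9.84 with LKB1, 9.10 and 9.35 with pBABE, and 9.15, 9.32 and 9.52 with K78I. The LKB1 arrays were close together in both lines, and A549 K78I replicate 2 was the lowest of all 17.

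The CD47 difference was 0.45 ± 0.16 in A549 (adjusted p = 0.0968) and 0.53 ± 0.16 in H2122 (0.0689), so neither line passed alone. The difference between lines was -0.08, with a 95% interval of -0.56 to 0.40. Averaged over both lines, a comparison added after these values had been seen, CD47 rose by 0.49 ± 0.11 or 1.40-fold (adjusted p = 0.00971), where 13.6% of all genes were called and 8.25% called higher. The same average called 4 members, the other 3 being CD274, PDCD1LG2 and NT5E, whose rise lay in H2122. The estimate of spread is shared by both lines, and without A549 K78I replicate 2 the H2122 value for CD47 was again 0.53 with an adjusted p of 0.00669. Without A549 K78I replicate 3, CD47 passed in both lines, at 0.53 in A549 (adjusted p = 0.0359) and 0.53 in H2122 (0.0441).

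CD276, a B7 family member common on carcinoma cells, read 9.41, 9.53 and 9.38 with LKB1 in H2122, above its controls at 8.96 and 8.81 with pBABE and 9.15, 9.15 and 9.05 with K78I. The groups did not overlap, but the difference of 0.44 ± 0.22 did not pass (adjusted p = 0.292). In A549 it read 8.31, 8.36 and 8.47 with LKB1, and the controls ranged from 7.04 on K78I replicate 2 to 8.31 on pBABE replicate 3. The A549 difference was 0.47 ± 0.21 (adjusted p = 0.203). Without A549 K78I replicate 2 the A549 difference was 0.28 (adjusted p = 0.239), without the 3 arrays low in cell cycle genes it was 0.18 (0.227), and the H2122 value was called without A549 K78I replicate 2 (0.44, adjusted p = 0.0481).

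The TIGIT ligands differed in pattern. NECTIN2 read 8.40, 8.16 and 8.20 with LKB1 in H2122, 7.54 and 7.93 with pBABE, and 8.12, 7.85 and 7.64 with K78I. The LKB1 arrays lay just above the highest control, and the difference of 0.45 ± 0.14 did not pass (adjusted p = 0.069). It passed without H2122 K78I replicate 1 (0.52, adjusted p = 0.037) or without H2122 pBABE replicate 2 (0.55, 0.0385). In A549 all NECTIN2 arrays lay between 8.10 and 8.56 and the difference was -0.05. PVR, the other TIGIT ligand, ranged from 9.37 to 9.73 in H2122 and from 9.73 to 10.75 in A549, with overlapping groups and differences of 0.06 and 0.23. In A549 PVR was called without the 3 arrays low in cell cycle genes (0.42, adjusted p = 0.0175) and with array weights (0.36, 0.0186), and had 0.36 without K78I replicate 2 (0.0864). In all, 6 members had LKB1 arrays above every control in H2122 (CD274, PDCD1LG2, CD276, NECTIN2, NT5E and CD47), a pattern that 8.54% of all genes showed, and 1 member in A549, against 8.46%.

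LGALS9, a secreted lectin that binds the T cell receptor TIM-3, was the member with the largest negative difference in A549. It read 3.85, 4.27 and 4.002 with LKB1, 4.63, 4.07 and 4.57 with pBABE, and 4.65, 4.88 and 4.91 with K78I. pBABE replicate 2 overlapped the LKB1 arrays, and the difference of -0.58 ± 0.19 did not pass (adjusted p = 0.0786); it passed without H2122 K78I replicate 2 (-0.58, adjusted p = 0.0255). In H2122 the LGALS9 difference was 0.00. VTCN1 lay between 3.29 and 4.45 on all 17 arrays, with overlapping groups and differences of -0.11 in A549 and 0.23 in H2122. LGALS9, VTCN1, CD274 and PDCD1LG2 were among the dimmest 30% of genes by mean level (under 4.83), where a level is hard to tell from background. CD274 lay under that bound on every A549 array, and PDCD1LG2 on every array other than the H2122 LKB1 arrays.

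**Figure D3:**
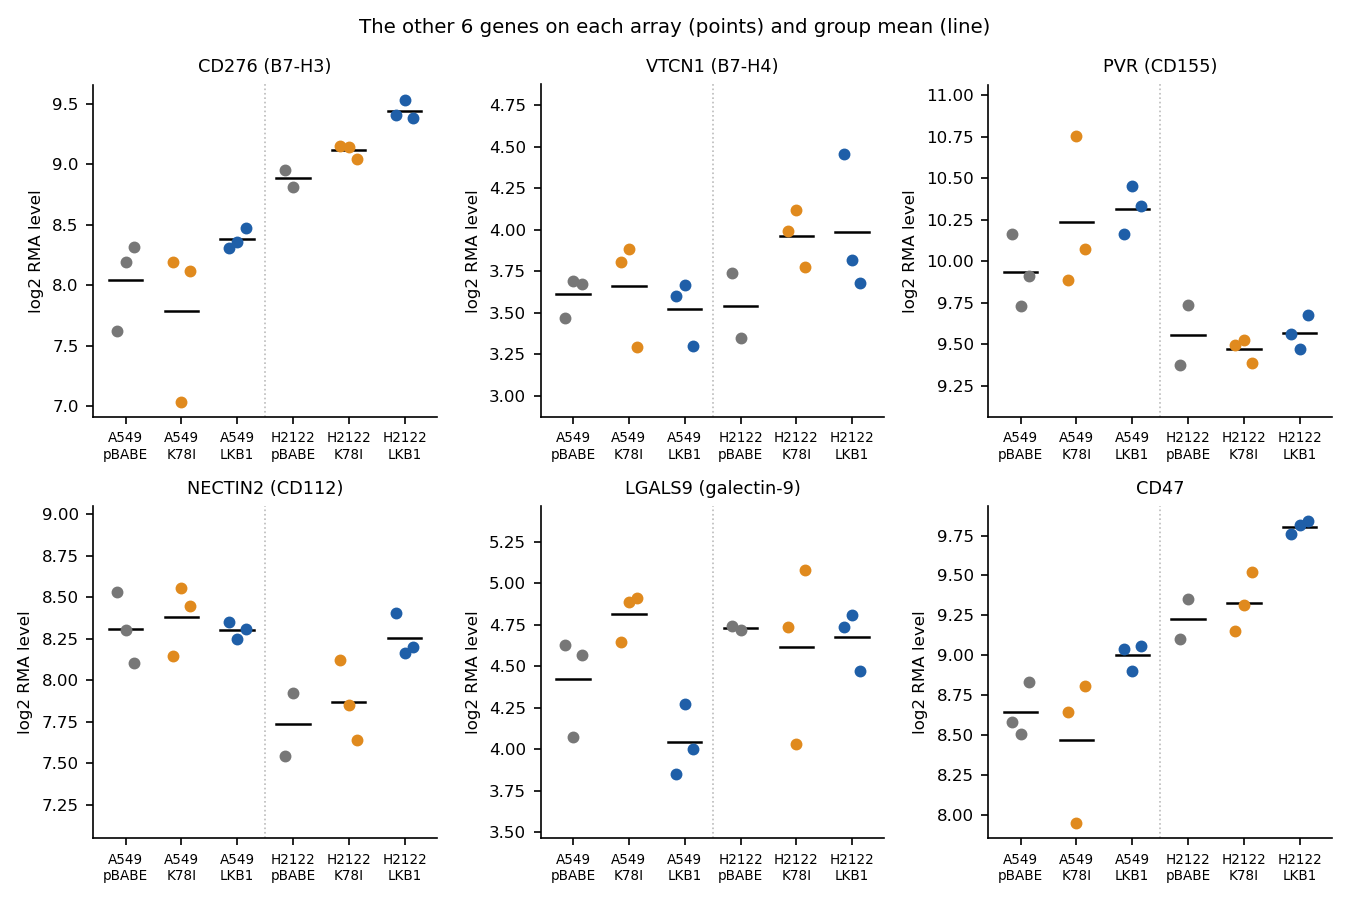
Log2 RMA level (vertical axis; each panel has its own range) of CD276, VTCN1, PVR, NECTIN2, LGALS9 and CD47 in the 6 groups (horizontal axis), with a point per array and a line at each group mean. CD47 with LKB1 (8.90 to 9.06 in A549, 9.76 to 9.84 in H2122) lies above the controls of its line, while PVR and VTCN1 overlap throughout.

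**Figure D4:**
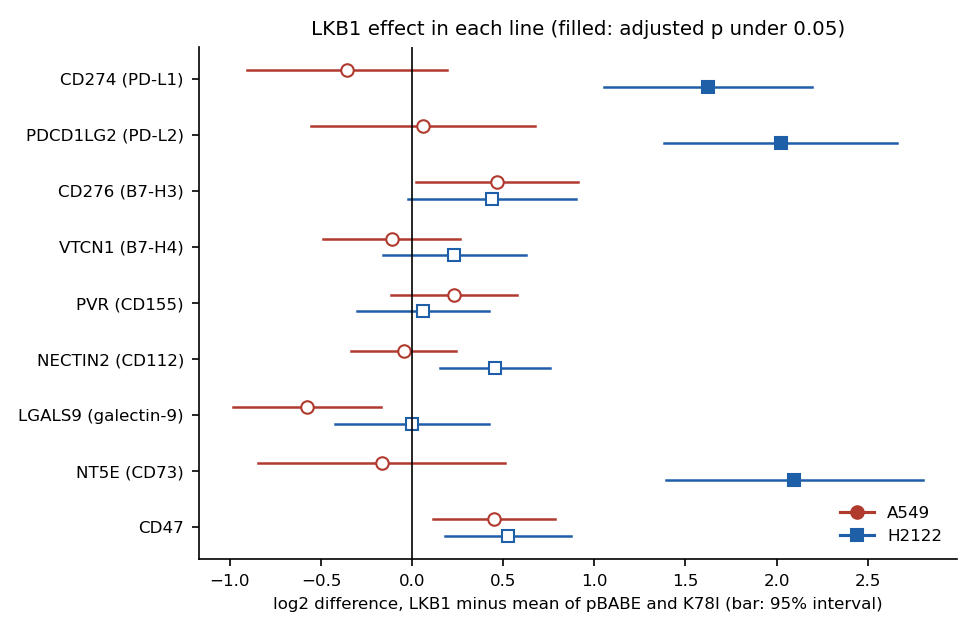
Log2 difference between LKB1 and the mean of both controls (horizontal axis) for each of the 9 genes (vertical axis) in A549 (circles) and H2122 (squares), with 95% intervals and filled symbols where the adjusted p was under 0.05. CD274, PDCD1LG2 and NT5E stand at 1.62, 2.02 and 2.10 in H2122 and near or below 0 in A549, while CD47 stands at 0.45 in A549 and 0.53 in H2122.

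The lines already differed without LKB1, in 6 of the 9 genes, where 40.3% of all genes were called. A549 controls were lower than H2122 controls in NT5E (-1.54 ± 0.27, adjusted p = 0.000302), CD276 (-1.09 ± 0.18, 0.000157), CD274 (-0.95 ± 0.22, 0.00285) and CD47 (-0.73 ± 0.14, 0.000449). They were higher in PVR (0.57 ± 0.14, adjusted p = 0.00382) and NECTIN2 (0.54 ± 0.12, 0.00143). With pBABE as the only control the differences for CD274 (-0.52, adjusted p = 0.302) and PVR (0.38, 0.217) did not pass. With LKB1 in both lines, NT5E was 13.97-fold lower in A549 than in H2122 (adjusted p = 9.99e-07), and 32.8% of all genes were called. The log2 differences were -2.93 for CD274 (adjusted p = 1.74e-06) and -2.47 for PDCD1LG2 (3.25e-05), with no fold given because the A549 arrays of both lay among the dimmest levels. For NT5E the order of the groups was thus A549 in all states, then H2122 controls, then H2122 with LKB1, and the A549 groups overlapped among themselves. For NECTIN2 the order closed up, and the lines read 8.30 ± 0.05 and 8.26 ± 0.13 (SD, n = 3 each) with LKB1. Its LKB1 effect did not pass in H2122 (adjusted p = 0.069), nor did the difference of that effect between lines (-0.50, 0.221).

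After each line's mean was subtracted, the members varied together in a few pairs over the 17 arrays. CD274 and PDCD1LG2 had a Pearson r of 0.89, CD274 and NT5E 0.85, PDCD1LG2 and NT5E 0.82, and CD276 and CD47 0.84. The arrays share the LKB1 groups, so these values restate the changes above in part. The genes most like CD274 by this measure were RPSAP52 (0.93), IL7R (0.92) and CNTN5 (0.92), and for PDCD1LG2 they were IL7R (0.97), RPSAP52 (0.97) and SLAMF7 (0.94). For NT5E they were VCAN (0.93), GSDME (0.92) and PPFIBP1 (0.92). IL7R, a cytokine receptor chain, rose by 2.40 in H2122 (adjusted p = 0.000425) and had -0.04 in A549 (0.965). It was picked for its likeness to CD274 and PDCD1LG2 on these same arrays, so its values are no separate result.

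CD274 and PDCD1LG2 lie side by side on chromosome 9 in the RefSeq gene order. Of the 6 measured genes on each side of CD274, the only ones called in H2122 were PDCD1LG2 and its neighbour RIC1, which rose by 0.40 ± 0.09 (adjusted p = 0.0161). JAK2, a kinase of the interferon-γ receptor on the other side, had 0.17 ± 0.11 (adjusted p = 0.47), and PLGRKT, next to CD274, 0.02 ± 0.18 (0.973). In A549 the only one called was INSL4, which fell by 3.71 (adjusted p = 0.000205). These neighbours were looked up after the CD274 values had been seen, and no alternative setting was run on them.

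Of 29 measured regulators of PD-L1, 3 rose and 1 fell in H2122, and 2 rose and 1 fell in A549. Over all genes, 4.99% rose and 2.29% fell in H2122, and 5.49% rose and 2.95% fell in A549. In H2122, EGFR, a receptor kinase, rose by 0.97 (adjusted p = 0.00334; without the arrays with conflicting labels 0.74, 0.119), and MYC, a transcription factor, fell by 0.63 (0.000632). In A549, JAK1, a kinase of the interferon receptors, rose by 0.83 (adjusted p = 0.00261), and PTPN2, a phosphatase that restrains JAK and STAT signalling, fell by 0.57 (0.00185). The other regulator called higher in A549 was SOCS3, which kept its call under 15 of 33 alternatives. JAK1 also rose in H2122, by 0.56 (adjusted p = 0.0422), a call that was lost without any 1 of the A549 LKB1 arrays, A549 pBABE replicate 2, A549 K78I replicate 3 or any 1 H2122 array other than pBABE replicate 2 (0.0521 to 0.143). CMTM6 was the remaining regulator called higher in H2122 and kept its call under 25 of 33 alternatives. Leaving out any 1 H2122 LKB1 array or H2122 K78I replicate 3 ended the CMTM6 call (limma's adjusted p 0.0541 to 0.0842). IRF1, which was picked after its values were seen, had 0.47 in H2122 (adjusted p = 0.0697) and 0.43 in A549 (0.0808), neither called. The median of the list was 0.09 in H2122 and 0.06 in A549.

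Of 24 other T cell ligands, 4 rose and 2 fell in A549, and 2 rose and 1 fell in H2122. Beside this, 8.44% of all genes were called in A549 and 7.28% in H2122. In A549, CD70, the ligand of the costimulatory receptor CD27, rose by 2.61 (adjusted p = 1.95e-05) and had -0.06 in H2122. HHLA2, another B7 family member, rose by 1.31 in A549 (adjusted p = 0.00248), and NCR3LG1, the B7-H6 ligand of a natural killer cell receptor, fell by 0.96 (0.00649). In H2122, LGALS1, a galectin that induces death of activated T cells, rose by 1.78 (adjusted p = 5.58e-05) and had 0.59 in A549 (0.0716).

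Of 8 nectins and nectin-like partners, 2 rose and 0 fell in A549, and 1 rose and 1 fell in H2122. Over all genes, 5.49% rose and 2.95% fell in A549, and 4.99% rose and 2.29% fell in H2122. CADM1 rose in A549 by 0.61 (adjusted p = 0.0427) and kept that call under 15 of 33 alternatives. NECTIN3, a binding partner of NECTIN2 and PVR, was higher in both lines, by 1.25 in A549 (adjusted p = 0.00326) and 1.30 in H2122 (0.00339). NECTIN4, the target of an antibody drug, fell by 1.16 in H2122 (0.00136). Without the arrays with conflicting labels the H2122 values were 0.86 (adjusted p = 0.0817) and -0.85 (0.0569). Against K78I alone NECTIN3 had 0.78 in H2122 (adjusted p = 0.135), and against pBABE alone 1.82 (0.00192). Of 12 ligands of natural killer cell receptors, 4 rose and 0 fell in H2122, and 0 rose and 1 fell in A549. Among all genes, 4.99% rose in H2122 and 2.95% fell in A549. ULBP2, a ligand of NKG2D, rose by 0.64 in H2122 (adjusted p = 0.00114) and fell by 0.42 in A549 (0.0138; 0.103 without A549 LKB1 replicate 1). HLA-G, a ligand of inhibitory receptors on these cells, rose by 0.91 in H2122 (adjusted p = 0.000774); its probes and those of ULBP2 may pick up near-identical family members, which was not tested.

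Around CD73, 18 genes of extracellular ATP and adenosine were measured, of which 2 rose and 2 fell in A549 and 1 rose in H2122. The share of all genes called was 8.44% in A549 and 7.28% in H2122. ADORA2B, an adenosine receptor, fell by 1.40 in A549 (adjusted p = 1.83e-05), from 7.61 in controls to 6.21, and had 0.43 in H2122 (0.0965). DPP4, which binds adenosine deaminase at the cell surface, rose by 1.08 in A549 (adjusted p = 0.00211). ENTPD3, an ecto-enzyme that degrades ATP upstream of CD73, rose by 1.75 in H2122 (adjusted p = 0.000734) and had -0.24 in A549 (0.66).

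Of 15 partners of CD47 and other phagocytosis signals, 3 rose in A549 and 4 in H2122, and 0 fell. Over all genes, 5.49% rose in A549 and 4.99% in H2122. MFGE8, a bridge between phagocytes and dying cells, rose by 2.32 in A549 (adjusted p = 5.23e-07) and 1.69 in H2122 (1.86e-05). SIRPA, the receptor of CD47, rose by 1.28 in A549 (adjusted p = 0.00356) and 1.17 in H2122 (0.0096; without H2122 LKB1 replicate 3, 1.11 and 0.053). CD24, another signal that restrains macrophages, rose by 1.64 in A549 (adjusted p = 0.00466) and had 0.64 in H2122 (0.322). THBS1, the secreted CD47 ligand thrombospondin, rose by 2.497 in H2122 (adjusted p = 0.00318) and had 1.08 in A549 (0.16). A separate list of receptors of the other members, which leaves out SIRPA, had 10 measured genes. None of them was called with LKB1 in either line, where 8.44% (A549) and 7.28% (H2122) of all genes were called. Of these 10, 2 in A549 and 1 in H2122 had an unadjusted p under 0.05 in limma.

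**Figure D5:**
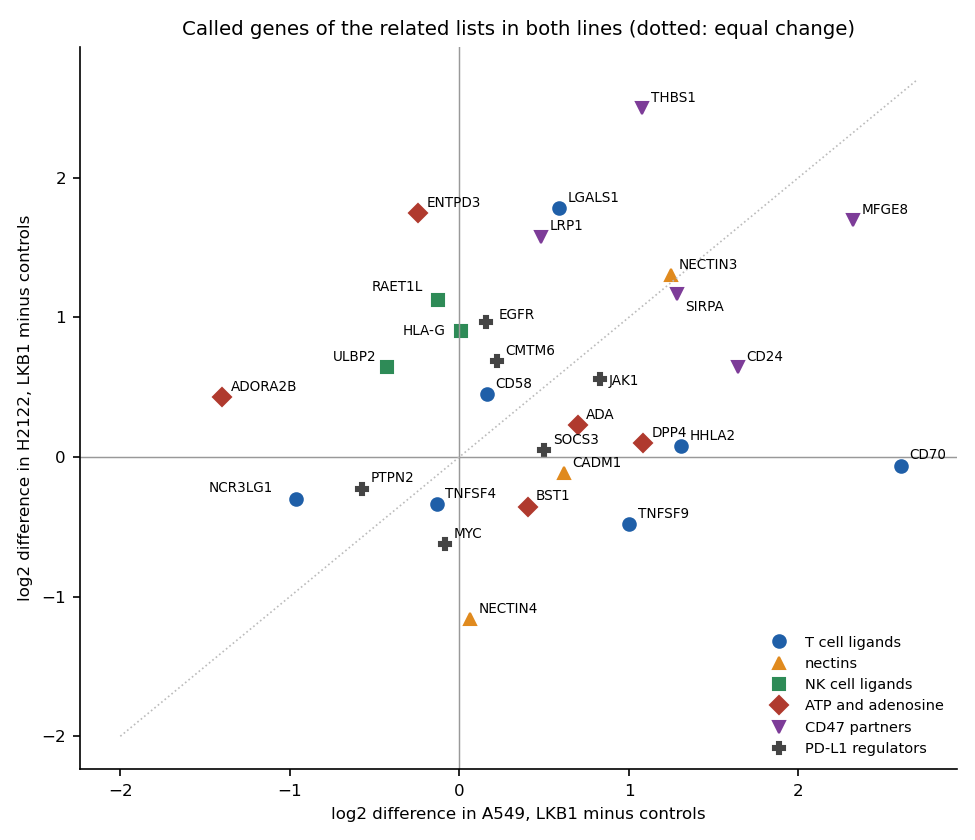
Log2 difference between LKB1 and controls in A549 (horizontal axis) and in H2122 (vertical axis) for the genes of 6 related lists that were called in either line or between lines, up to 3 per list and comparison; the dotted line marks equal change. MFGE8, SIRPA, NECTIN3 and THBS1 are above 1 in both lines (THBS1 was called in H2122 only), CD70 (2.61 and -0.06) moves along one axis only, and ADORA2B (-1.40 and 0.43) lies on opposite sides of 0.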

How the data were processed

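RNA of each sample (130 ng) was hybridised to 1 Affymetrix array. Per the submitters' processing notes, the authors ran RMA in Affymetrix Expression Console 1.1, and the deposited values are log2 levels per probe set. Because RMA equalises the arrays' distributions, these values cannot show a general rise or fall of expression. No genome build for the array is given in the sources here.

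Of 33297 probe sets, the platform annotation named 1 symbol for 19181 and several for 2055, and left out 12061. For 895 genes with several probe sets the brightest was kept, which left 17958 genes. Of the identifiers 19143 matched RefSeq and 0 symbols changed.

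Groups came from the titles. limma 3.58.1 in R 4.3.3 (lmFit and eBayes, 6 groups, 11 residual and 3.8 prior degrees of freedom, Benjamini-Hochberg over 17958 genes, threshold 0.05) compared LKB1 with the mean of both control groups at equal weight, the lines with each other, and K78I with pBABE; it was tested on simulated data. Errors after ± are SE of limma's fit unless SD is named. The replicate numbers were not taken as pairs, since not every same-numbered pair correlated over 0.1: 4 of 9 pairs did in A549 and 6 of 7 in H2122, where the values ran from 0.064 to 0.42. Whether a number marks something shared in H2122 is therefore not settled, and the fit with the number as a block is given in the closing section. The difference of 2 replicates had an SD over genes between 0.226 and 0.608, and each array counted as 1 replicate.

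The named genes were the 9 members, STK11, for each list and comparison up to 3 called genes, taken in order of adjusted p, and the 3 genes most correlated with each member called for LKB1; neighbours of CD274 and IRF1 were added after their values had been seen. Not every gene that this rule admits is named. The members and lists were chosen with earlier results of these data known. Alternatives were a replicate block, the conflicting labels, arrays against their STK11 label or low in cell cycle genes, leaving out each array, a filter on dim genes, centring, quantile normalization, other probe set rules, priors, array weights, a fit per line and other controls.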

Additional observations from a re-analysis of the deposited data

Results flagged for a closer look

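The results here are genes whose LKB1 effect differed between A549 and H2122 in limma's interaction test, given as the A549 effect minus the H2122 effect on the log2 scale with the adjusted p. Among the members these were CD274 at -1.98 (0.00802), NT5E at -2.26 (0.0125) and PDCD1LG2 at -1.96 (0.0166). Among the ATP and adenosine genes, ADORA2B stood at -1.82 (0.00016) and ENTPD3 at -1.99 (0.007). BST1, an ecto-enzyme of NAD, stood at 0.76 (0.0474). Among T cell ligands, CD70 stood at 2.67 (0.00111), LGALS1 at -1.19 (0.0265) and TNFSF9 at 1.48 (0.0269). Among ligands of natural killer cells, ULBP2 stood at -1.07 (0.00078), HLA-G at -0.90 (0.0169) and RAET1L at -1.25 (0.0372). NECTIN4 stood at 1.22 (0.0181), the epithelial cadherin CDH1 at -1.63 (0.0271) and MYC at 0.54 (0.0303).

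CD70 and ADORA2B kept their call under all 32 alternatives, and ULBP2 under 31 of 32. Without the arrays with conflicting labels the calls of LGALS1 (-1.03, adjusted p = 0.156), TNFSF9 (1.58, 0.133), NECTIN4 (0.91, 0.145), HLA-G (-0.88, 0.085), RAET1L (-1.004, 0.293), ENTPD3 (-1.60, 0.0895), BST1 (0.84, 0.126), MYC (0.49, 0.188) and CDH1 (-1.58, 0.185) were lost.

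Single arrays also ended calls. HLA-G lost its call without A549 LKB1 replicate 2 (adjusted p = 0.0506) or 3 (0.0521) or H2122 LKB1 replicate 2 (0.0538). NECTIN4 lost it without A549 LKB1 replicate 3 (0.0696) or H2122 LKB1 replicate 1 (0.0561) or 3 (0.0642). LGALS1 lost it without replicate 2 or 3 of the LKB1 arrays of either line (0.071 to 0.0779). TNFSF9 lost it without LKB1 replicate 1 or 2 of A549 or any H2122 LKB1 array (0.0613 to 0.08), and CDH1 without LKB1 replicate 2 or 3 of A549, any H2122 LKB1 array or H2122 K78I replicate 3 (0.0517 to 0.0747). MYC lost it without any A549 LKB1 array, A549 pBABE replicate 1 or 2, H2122 LKB1 replicate 1 or 3, H2122 pBABE replicate 2 or H2122 K78I replicate 3 (0.0509 to 0.099). RAET1L lost it without any A549 LKB1 array, A549 pBABE replicate 1 or 3, H2122 LKB1 replicate 1 or 3, H2122 pBABE replicate 2 or H2122 K78I replicate 2 or 3 (0.0524 to 0.122). BST1 lost it without any A549 LKB1 array, A549 pBABE replicate 1 or 2, H2122 LKB1 replicate 1 or 2, H2122 pBABE replicate 2 or H2122 K78I replicate 2 or 3 (0.0601 to 0.138).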

How the results depend on the processing

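Of the 9 members limma called 3 in H2122, 0 in A549, 3 between lines, 6 between the lines' controls, 0 for K78I in either line and 4 averaged over lines. By source name the counts were 0 in H2122, 0 between lines and 0 averaged, and the averaged CD274 difference turned to -0.051; in H2122 NECTIN3 turned to -0.087, THBS1 to -0.30 and PECAM1 to 0.069. Without the arrays with conflicting labels they were 1, 0 and 2. Without the arrays against their STK11 label 6 were called in H2122 and 1 in A549, and the same without arrays low in cell cycle genes. Without the dimmest 30% of genes, which left 5 members, they were 1, 1 and 2; with array weights 5 in H2122 and 3 in A549; with each line fitted alone 5 in H2122; with K78I as the only control 1 between lines and 2 averaged. Leaving out each array gave 3 to 5 in H2122, 0 to 1 in A549, 2 to 3 between lines and 3 to 5 averaged. Beside the source name, the averaged CD274 call was lost under 13 alternatives. The cause of these shifts was not tested. The replicate block kept the counts of called members at 3, 0, 3 and 4, with 1197 genes called in H2122 and 1421 in A549.

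Over all genes, 1308 calls in H2122 became 1 by source name, 422 without conflicting labels, 2345 without arrays low in cell cycle genes, 2264 with array weights and 698 against K78I, and 755 to 868 without 1 H2122 LKB1 array. In A549 1515 became 844 and 715 without LKB1 replicate 1 or 3, 3844 with weights, 875 alone, 987 against pBABE and 943 against K78I. Between lines 647 became 175 by source name, 209 without conflicting labels, 310 to 427 without 1 LKB1 array, 1706 with weights, 402 against pBABE and 297 against K78I. K78I against pBABE reached 35 calls in A549 without the arrays against their STK11 label and 1041 in H2122 without pBABE replicate 1. Between controls 7245 became 4644 with pBABE alone. Averaged, 2437 became 874, 1486, 4250 with weights and 1498 against K78I.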
